A study of Homo sapiens with 4 samples.

Results

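Aminoacyl-tRNA synthetases are the enzymes that join each amino acid to its transfer RNA, the step that lets the ribosome read a codon as an amino acid. Human cells encode 1 set for the cytosol and another, nuclear encoded and imported, for the mitochondrion, and a few genes serve both compartments. Several cytosolic members are held in a multi-synthetase complex on non-enzymatic scaffold proteins, while others work alone. Many cytosolic synthetase genes are known targets of ATF4, the transcription factor of the integrated stress response, and WARS, the tryptophanyl-tRNA synthetase, is also known to be induced by interferon. The genes described here were taken by name: 36 synthetase genes of the 23004 gene names in the data, 20 cytosolic (no trailing 2 in the symbol, with FARSA and FARSB, the subunits of the phenylalanine enzyme) and 16 mitochondrial (a trailing 2). All 36 were measured and all passed the filter on low values, a mean of at least 1 FPKM over the libraries.

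The cells were BEAS-2B, an immortalized line of human bronchial epithelial cells. There were 2 untreated libraries and 2 libraries from cells given 100 µM formaldehyde for 48 h. Nothing in the labels tells whether replicates were grown separately. The p-values therefore reflect the spread among these 4 libraries alone, and that spread may be technical. Expression is given in FPKM, fragments scaled to the length of the transcript and to the depth of the library, summed over the transcripts of a gene, so levels of different genes can be set side by side per length. Differences are log2 fold changes of FPKM + 1, formaldehyde minus untreated, with the standard error (SE) of limma's moderated test, and p-values were adjusted over all 12407 genes that passed the filter by the Benjamini-Hochberg method. These are bulk RNA libraries, in which fewer cells of a type and less RNA per cell cannot be told apart.

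The depth implied by the files was 14224719 to 26464213 fragments per library. The keratins KRT8, KRT18 and KRT7 stood between 140 and 531 FPKM, whereas the basal keratin KRT5 was listed at 0 and the epithelial markers CDH1 and KRT19 stayed under 0.7 FPKM in every library. Of the 8 epithelial markers, KRT8, KRT18 and KRT7 were each higher in both formaldehyde libraries, CDH1 and KRT19 were lower in both, KRT17 and EPCAM overlapped, and KRT17 had a lower mean with formaldehyde. Their summed level was 736 and 819 FPKM in untreated and 1400.4 and 1204 FPKM in formaldehyde libraries. COL1A1, the collagen that marks fibroblasts, was lower with formaldehyde, at 279 and 568 FPKM without and 137 and 254 FPKM with formaldehyde. Of the 4 fibroblast markers, DCN was at 0 in 3 libraries and COL1A2 reached 1.34 FPKM. PDGFRB stood at 21.8 and 30.0 FPKM without and at 7.40 and 22.2 FPKM with formaldehyde, and its groups overlapped. The summed level of those 4 markers was 300.9 and 599 FPKM in untreated and 145 and 277 FPKM in formaldehyde libraries. The leukocyte gene CD3E was at 0 and PTPRC did not exceed 0.0232 FPKM, while CD14 stood at 3.75 and 12.0 FPKM without and at 1.77 and 6.23 FPKM with formaldehyde. The part of these marker differences in the results below was not tested.

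The stretch of promoter that ATF4 is known to bind together with C/EBP proteins, the C/EBP-ATF response element, is shown for the members that hold it, since it is the sequence by which synthetase genes are linked to the stress response. RefSeq promoters of the GRCh38.p14 build, from 250 bases before to 50 bases after each listed start, were found for 30 of the 36 members, with 39 promoters between them. DARS, LARS, VARS, YARS, AARS2 and VARS2 were not matched. The motif searched was TGATGNAA on both strands. It was found in 7 of 16 cytosolic genes and in 1 of 14 mitochondrial genes, against 4.46% of 27305 genes and 3.62% of 35097 promoters in the table. All 7 cytosolic genes belong to the 12 synthetases listed as ATF4 targets, of which 10 had a promoter in the table. The other 3 of those 10, EPRS, SARS and WARS, and the 6 matched cytosolic genes outside that list held none of these letters in this window. The windows are written along the strand of the gene, with the motif in capitals, and a motif on the opposite strand reads TTNCATCA.
AARS: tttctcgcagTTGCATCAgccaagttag
CARS: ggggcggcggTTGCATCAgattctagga
GARS: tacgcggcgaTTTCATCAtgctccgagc
IARS: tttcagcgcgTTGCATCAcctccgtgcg
MARS: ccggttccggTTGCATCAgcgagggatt
NARS: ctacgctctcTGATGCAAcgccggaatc
TARS: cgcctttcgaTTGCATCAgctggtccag
YARS2: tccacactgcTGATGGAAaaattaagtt
The AARS window lies at chr16:70289676-70289703 on the minus strand. Its motif begins 187 bases before the listed start, the farthest upstream among the cytosolic genes. In CARS (chr11:3057408-3057435, minus), GARS (chr7:30594835-30594862, plus), IARS (chr9:92293693-92293720, minus) and MARS (chr12:57488054-57488081, plus) the motif begins 2, 33, 13 and 4 bases before the start. The CARS and MARS motifs run across the start into the transcribed part. In NARS (chr18:57621805-57621832, minus) and TARS (chr5:33440957-33440984, plus) the motif begins within the transcribed part, at bases 15 and 3. The YARS2 window is at chr12:32756077-32756104 on the minus strand, and its motif begins 197 bases before the start. A match describes letters in a window and not a bound site.

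For WARS, whose promoter is known for its interferon response, 2 further motifs were searched: the interferon-stimulated response element as GAAANNGAAA on both strands, and the interferon-gamma-activated (GAS) element as TTCNNNGAA, which reads the same on both strands. Both were found before the downstream of its starts in the RefSeq promoters, at base 100375347 of GRCh38.p14. That start was not matched to the hg19 starts of WARS described below.
WARS, interferon-stimulated response element: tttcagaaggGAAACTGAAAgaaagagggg
WARS, GAS element: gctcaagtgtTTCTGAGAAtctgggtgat
The first window is at chr14:100375383-100375412 and the other at chr14:100375471-100375499, both on the minus strand. Their motifs begin 55 and 142 bases before the start. Among the members the interferon motif was otherwise found only in EARS2, and 4.38% of genes in the table hold it. The GAS motif was also found in CARS, TARS, PARS2 and WARS2, and 9.38% of genes hold it.

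After formaldehyde, 19 of the 20 cytosolic synthetases had a positive log2 fold change, and in 10 of them both formaldehyde libraries stood above both untreated ones. No cytosolic member passed the adjusted threshold of 0.05. The background for these counts is as follows: 55.1% of all genes tested had a positive value (6831 of 12407), 0.153% passed the threshold (19 genes), in 16.2% both formaldehyde libraries stood above both untreated ones, and in 10.7% both stood below. The median log2 fold change was 0.35 over the cytosolic members and 0.03 over all genes tested. Their summed level was 1175 and 1080 FPKM in the untreated libraries and 1404 and 1423 FPKM in the formaldehyde libraries, or 0.229% and 0.218% against 0.260% and 0.276% of the FPKM of all named genes. The cytosolic median was 0.23 without untreated replicate 2, 0.22 without formaldehyde replicate 1 and 0.46 without untreated replicate 1. Without untreated replicate 2, 12 of the 20 remained positive. The smallest adjusted p over the 36 members was 0.9999, and 3 cytosolic and 0 mitochondrial members had an unadjusted p under 0.05, against 2.76% of all genes tested (343 of 12407). With 2 libraries against 2, an exact permutation test of a single gene cannot go below 0.3333.

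**Figure D1:**
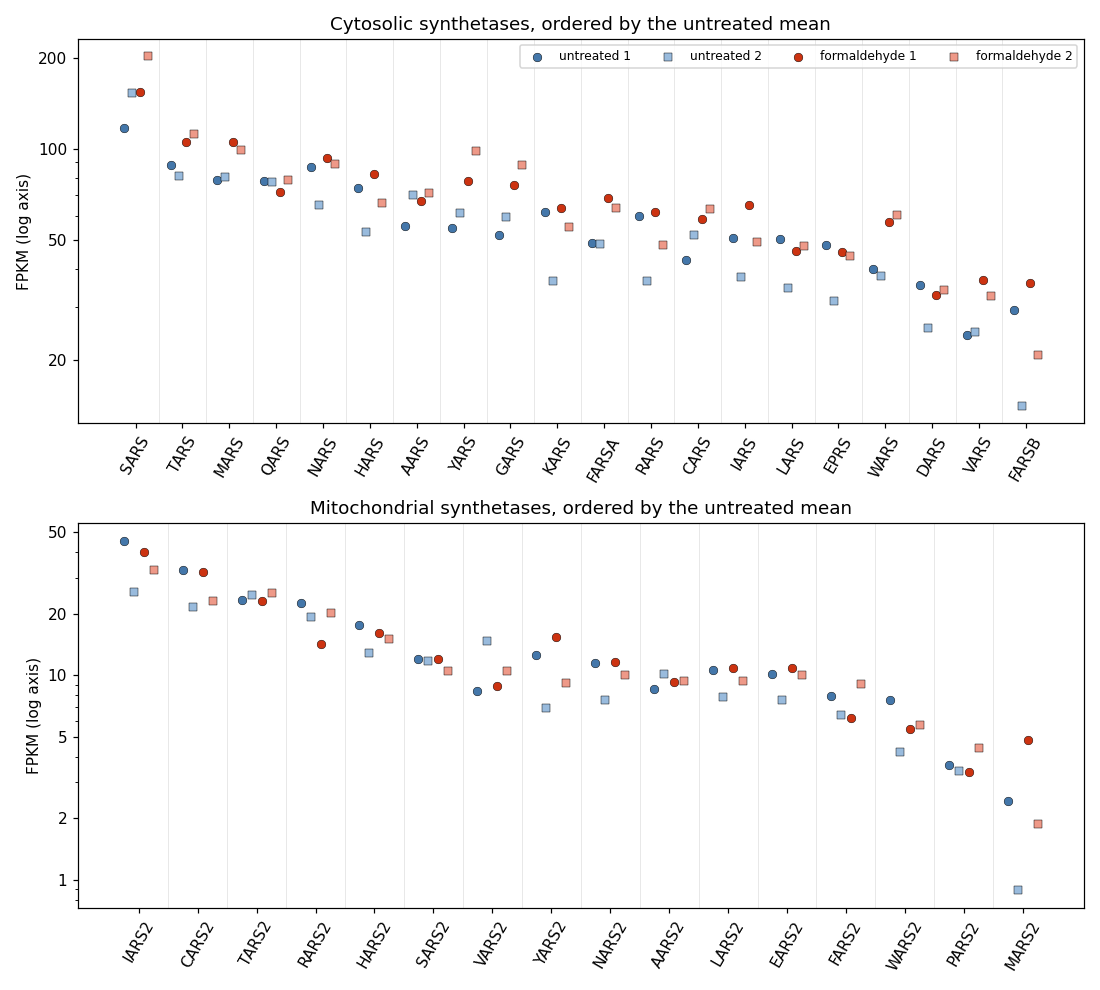
FPKM of the 20 cytosolic (top) and 16 mitochondrial (bottom) synthetase genes in each of the 4 libraries, on log axes, ordered by the untreated mean. Circles are replicate 1 and squares replicate 2, blue untreated and red formaldehyde. SARS is the highest cytosolic gene and IARS2 the highest mitochondrial gene by the untreated mean, and the 2 untreated libraries lie apart for many genes.

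Among the cytosolic members WARS had the largest moderated t statistic. It stood at 40.05 and 38.0 FPKM in the untreated and at 57.0 and 60.3 FPKM in the formaldehyde libraries. The replicates of each condition lay close together and the conditions did not overlap. Its log2 fold change was 0.58 ± 0.19 (SE, n = 2 per group; limma, unadjusted p = 0.0295, adjusted p = 0.9999), and leaving out each library in turn gave 0.54 to 0.61. WARS spans chr14:100800125-100842680 on the minus strand of hg19 and has 4 annotated transcripts with 2 starts. The upstream start, at base 100842680, accounted for 27.5 and 26.7 FPKM in untreated and for 40.5 and 41.3 FPKM in formaldehyde libraries. The downstream start, at base 100841927, accounted for 12.5 and 11.3 FPKM and for 16.6 and 18.9 FPKM. Both starts were higher with formaldehyde, and the share of the upstream start was between 68.6% and 70.9% in all 4 libraries.

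YARS, the tyrosyl-tRNA synthetase (chr1:33240840-33283633, minus), stood at 54.4 and 61.2 FPKM without and at 77.9 and 98.3 FPKM with formaldehyde. The formaldehyde libraries were both above the untreated ones and differed from each other more than the untreated ones did. The log2 fold change was 0.59 ± 0.22 (limma, unadjusted p = 0.0467, adjusted p = 0.9999). GARS, which charges glycine in the cytosol and the mitochondrion alike (chr7:30634181-30673648, plus), stood at 51.7 and 59.6 FPKM without and at 75.8 and 88.4 FPKM with formaldehyde. The groups were again apart, with a log2 fold change of 0.55 ± 0.21 (limma, unadjusted p = 0.0492, adjusted p = 0.9999). GARS has 1 annotated transcript in the files, so its cytosolic and mitochondrial forms are not told apart here.

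VARS, the valine enzyme (chr6:31745297-31763712, minus), stood at 24.1 and 24.7 FPKM in untreated and at 36.9 and 32.4 FPKM in formaldehyde libraries. It was among the lowest of the cytosolic members, and its untreated replicates nearly coincided. Its log2 fold change was 0.48 ± 0.19 (limma, unadjusted p = 0.054, adjusted p = 0.9999). FARSA, the catalytic subunit of the phenylalanine enzyme (chr19:13033284-13044558, minus), stood at 48.6 and 48.4 FPKM against 68.7 and 63.8 FPKM, a log2 fold change of 0.44 ± 0.19 (limma, adjusted p = 0.9999). FARSB, the partner subunit (chr2:223436162-223520827, minus), stood at 29.3 and 14.1 FPKM against 35.8 and 20.8 FPKM, and its groups overlapped. The log2 fold change of FARSB was 0.41 ± 0.44, and it was −0.10 without untreated replicate 2. In both conditions replicate 1 was the higher library for FARSB.

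The other separated members were enzymes for threonine, methionine, cysteine, serine and asparagine. TARS stood at 88.1 and 81.0 FPKM in untreated and at 105.4 and 112.0 FPKM in formaldehyde libraries, with a log2 fold change of 0.36 ± 0.20. MARS stood at 78.8 and 80.8 FPKM against 104.9 and 98.9 FPKM, with a log2 fold change of 0.35 ± 0.20. CARS stood at 42.9 and 51.7 FPKM against 58.5 and 63.2 FPKM, with a log2 fold change of 0.36 ± 0.21 that was 0.23 without untreated replicate 1. In each of these 3 genes the gap between the groups was wider than the gap within the formaldehyde group. In CARS it was narrower than the gap within the untreated group. SARS, the highest synthetase in all 4 libraries, stood at 116.5 and 153.0 FPKM against 154.1 and 201.8 FPKM, so the nearest pair of libraries differed by about 1 FPKM. Its log2 fold change was 0.40 ± 0.27 and was 0.20 without untreated replicate 1, 0.21 without formaldehyde replicate 2 and 0.59 without either of the other libraries. NARS stood at 86.7 and 65.3 FPKM against 93.1 and 88.8 FPKM, with a log2 fold change of 0.27 ± 0.23 that was 0.07 without untreated replicate 2, and 0.47 with untreated replicate 1 left out.

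In the other 10 cytosolic members the groups overlapped. IARS, the isoleucine enzyme, stood at 50.8 and 37.5 FPKM in untreated and at 64.8 and 49.2 FPKM in formaldehyde libraries, with a log2 fold change of 0.36 ± 0.26. The IARS value was 0.15 without untreated replicate 2, 0.17 without formaldehyde replicate 1, 0.58 without untreated replicate 1 and 0.56 without formaldehyde replicate 2. KARS, the lysine enzyme of both compartments, stood at 61.9 and 36.4 FPKM against 63.8 and 55.1 FPKM. The untreated libraries of KARS differed more from each other than the group means did, and its log2 fold change of 0.31 ± 0.31 became −0.06 without untreated replicate 2. HARS, EPRS, RARS, AARS, LARS and DARS had log2 fold changes of 0.15 to 0.23. These enzymes charge histidine, glutamate and proline, arginine, alanine, leucine and aspartate. Each of them was negative without 1 untreated library: without replicate 1 for AARS, at −0.02, and without replicate 2 for the other 5, at −0.01 to −0.13. QARS, the glutamine enzyme, was the 1 cytosolic member with a negative value, at 78.2 and 77.6 FPKM against 72.0 and 78.5 FPKM, a log2 fold change of −0.05 ± 0.20.

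**Figure D2:**
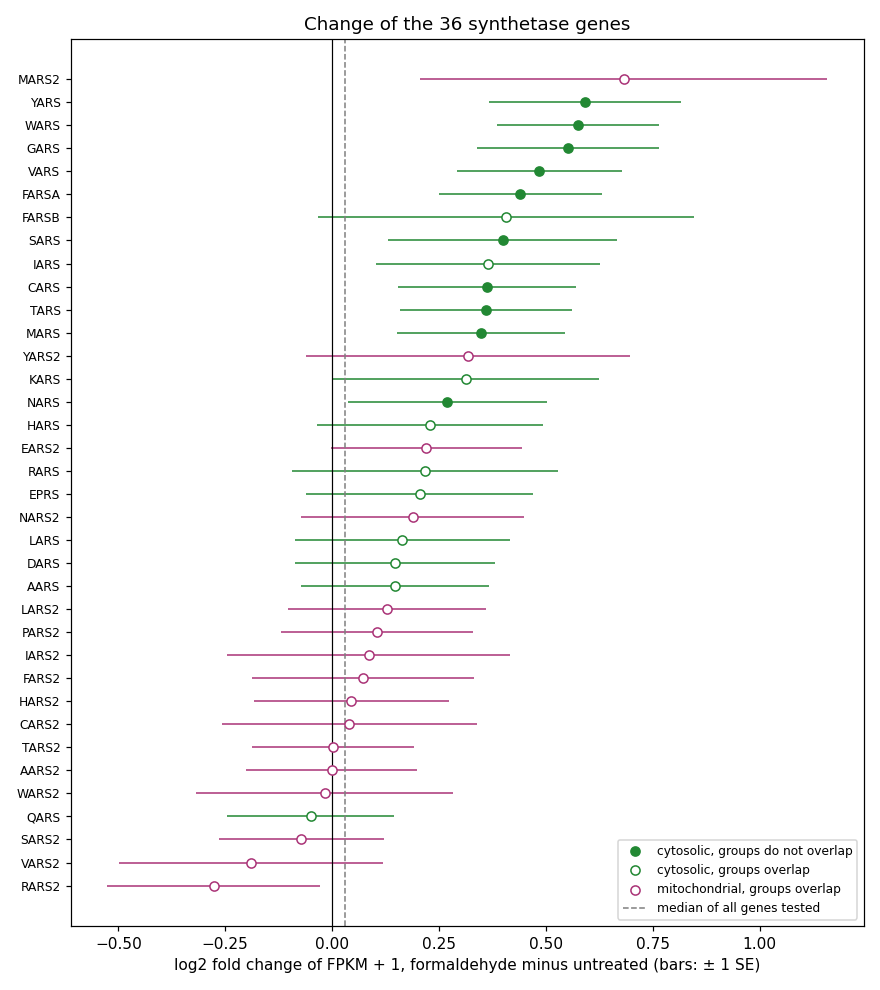
Log2 fold change of FPKM + 1 (formaldehyde minus untreated) of the 36 synthetase genes, with bars of ± 1 SE from limma, n = 2 libraries per group. Filled green points are the 10 cytosolic genes whose groups did not overlap, open green the other 10, and purple the 16 mitochondrial genes; the dashed line is the median of all genes tested, 0.03.

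The cytosolic members were divided by what their proteins are known to assemble into. The 8 synthetases of the multi-synthetase complex are EPRS, IARS, LARS, MARS, QARS, RARS, KARS and DARS. Of these, 7 had a positive log2 fold change, 1 was separated (MARS), and the median was 0.21. Of the 12 outside the complex, 12 had a positive value, 9 were separated, and the median was 0.40. In the complex 12.5% were thus separated and higher, below the 16.2% of all genes tested, and outside it 75%. Positive values were found in 55.1% of all genes tested. The members outside the complex differed little between the untreated libraries, with a median difference of −0.01 (untreated 1 minus untreated 2), while the complex members differed by 0.49, with 7 of 8 higher in untreated 1. Accordingly the median of the complex members was −0.02 for formaldehyde 1 minus untreated 1 and 0.46 for formaldehyde 1 minus untreated 2. For the members outside the complex those same differences were 0.42 and 0.44. Formaldehyde 2 gave −0.06 and 0.40 for the complex members and 0.40 and 0.42 for those outside. When untreated replicate 2 was left out, the median was −0.07 in the complex, with 2 of 8 positive, and 0.47 outside it, with 10 of 12 positive. When untreated replicate 1 was left out, the medians were 0.47 and 0.46. The difference between these groups of genes was not tested. A gap between the untreated libraries was not particular to the complex. The median of untreated 1 minus untreated 2 was also 0.37 over cytosolic and 0.43 over mitochondrial translation factors, and 0.10 over all genes tested.

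The scaffold proteins of the complex varied in the same libraries. AIMP2, which holds many of its contacts, stood at 27.3 and 17.9 FPKM in untreated and at 35.6 and 28.8 FPKM in formaldehyde libraries, a log2 fold change of 0.51 ± 0.28 (limma, adjusted p = 0.9999) that was 0.23 without untreated replicate 2, and 0.80 with untreated replicate 1 left out. AIMP1 stood at 13.0 and 10.2 FPKM against 14.8 and 13.6 FPKM, and EEF1E1, the scaffold protein also called AIMP3, at 77.6 and 51.6 FPKM against 82.8 and 73.6 FPKM. AIMP1 and AIMP2 were separated and EEF1E1 was not. All 3 were lower in untreated 2 than in any other library, and their median of 0.30 was 0.12 without it and 0.59 without untreated replicate 1.

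**Figure D3:**
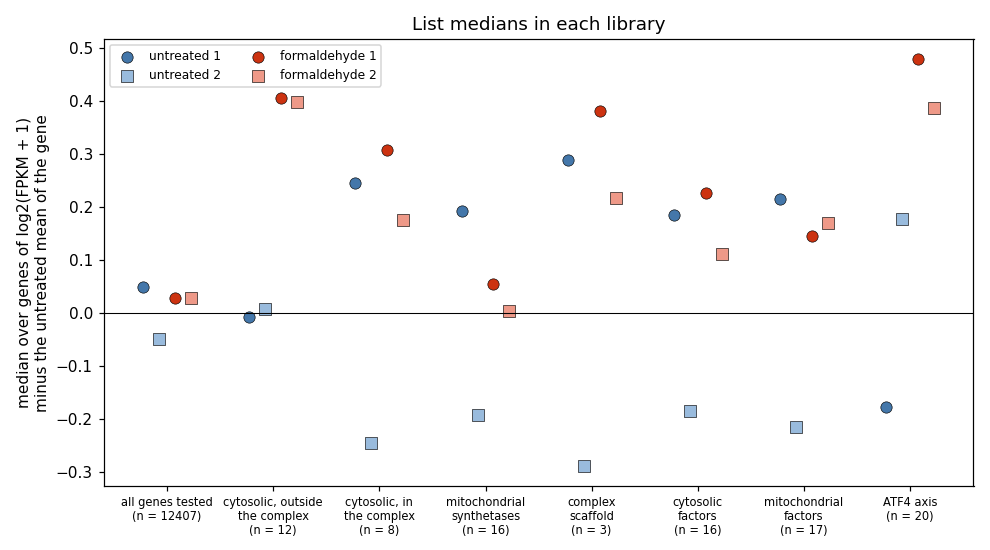
Median over the genes of each list of log2(FPKM + 1) minus the gene's untreated mean, in each library. For the 12 cytosolic synthetases outside the complex the untreated libraries lie at −0.01 and 0.01 and the formaldehyde libraries at 0.41 and 0.40, whereas for the complex members, the mitochondrial synthetases and the scaffold the 2 untreated libraries stand apart. They also stand apart for the cytosolic factors (0.18 and −0.18), the mitochondrial factors (0.21 and −0.21) and, the other way round, the ATF4 axis (−0.18 and 0.18).

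The synthetases fall into 2 catalytic classes with unrelated protein folds. EPRS, whose glutamate part is of class I and proline part of class II, was counted in class I. The 10 class I genes had a median of 0.35 with 9 positive and 5 separated, and the 10 class II genes a median of 0.34 with 10 positive and 5 separated. Without untreated replicate 2 the medians were 0.26 and 0.18, with 6 of 10 positive in each class, and without formaldehyde replicate 1 they were 0.25 and 0.22. The 12 synthetases listed as ATF4 targets had a median of 0.36, with 12 positive and 8 separated. Of the 8 other cytosolic members, 7 were positive, 2 were separated (FARSA and VARS) and the median was 0.27. The ATF4-listed genes had the higher median without untreated replicate 2, at 0.34 against −0.06 in the others, and without formaldehyde replicate 1, at 0.35 against 0.12. They had the lower median without untreated replicate 1, at 0.44 against 0.47, and without formaldehyde replicate 2, at 0.31 against 0.41. Of the 7 cytosolic genes with the promoter motif shown above, CARS, GARS, MARS, NARS and TARS were separated, and AARS and IARS were not. Among the matched cytosolic genes without it, FARSA, SARS and WARS were separated, and EPRS, FARSB, HARS, KARS, QARS and RARS were not. VARS and YARS, whose promoters were not matched, were separated too, and DARS and LARS, also not matched, were not. Over all genes tested, 16.2% were separated and higher, and 55.1% had a positive value.

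ATF4 itself, by transcript level, overlapped between conditions, at 208 and 265 FPKM in untreated and 231 and 348 FPKM in formaldehyde libraries. The other genes of its axis were taken from a list of 20, of which 17 had positive values and 10 were separated, with a median of 0.41 and none past the adjusted threshold. Among all genes tested, 55.1% were positive, 16.2% were separated and higher, and 0.153% passed the threshold. TRIB3, a pseudokinase that feeds back on ATF4, stood at 21.8 and 27.7 FPKM against 68.3 and 67.5 FPKM. Both formaldehyde libraries of TRIB3 were far above the untreated ones, and its log2 fold change was 1.43 ± 0.21 (limma, unadjusted p = 0.0012, adjusted p = 0.413). PSAT1, an enzyme of serine synthesis, stood at 71.1 and 56.2 FPKM against 122 and 92.5 FPKM. EIF4EBP1, a repressor of cap-dependent translation, stood at 112 and 119 FPKM against 167 and 170 FPKM. Both were separated, with log2 fold changes of 0.74 ± 0.25 and 0.54 ± 0.20. Unlike the complex members, the axis as a whole was lower in untreated 1 than in untreated 2, with library medians of −0.18 and 0.18 against 0.48 and 0.39 after formaldehyde. Its median was 0.13 without untreated replicate 1.

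Interferon-response genes were read beside WARS. Of the 20 listed, 19 passed the filter, 16 of them had positive values and 14 were separated, with a median of 0.75. The shares over all genes tested were 55.1% positive and 16.2% separated and higher. IFI27, a gene known to be induced by type I interferon, rose from 17.6 and 14.5 FPKM to 136 and 135 FPKM, a log2 fold change of 3.003 ± 0.20 (limma, adjusted p = 0.0212), and was the 1 listed gene past the threshold. Its adjusted p was 0.0921 without the filter on low values and 0.0809 to 0.135 when each library was left out (limma), with IFI27 log2 fold changes of 2.87 to 3.13. IFI6 stood at 176 and 217 FPKM against 718 and 778 FPKM, and ISG15, a ubiquitin-like modifier, at 123 and 101 FPKM against 723 and 447 FPKM. Both had larger differences than WARS, at 1.93 ± 0.25 and 2.34 ± 0.32, with adjusted p of 0.237 and 0.314 (limma). IRF9, part of the factor that binds the interferon-stimulated response element, stood at 15.6 and 15.3 FPKM against 26.4 and 31.8 FPKM, and its groups were separated. In IRF1 and GBP1, both known for their response to interferon gamma, the groups overlapped: IRF1 stood at 14.8 and 11.9 FPKM against 11.8 and 15.3 FPKM, and GBP1 at 20.2 and 23.8 FPKM against 14.5 and 23.0 FPKM. IDO1, which degrades tryptophan, the substrate of WARS, was below 0.09 FPKM in every library. ATF4, IRF9, IRF1, GBP1 and IDO1 were chosen for mention after their values were seen.

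None of the 16 mitochondrial synthetases was separated in either direction, and none passed the adjusted threshold. With libraries rescaled by median ratios RARS2 was separated and lower, and with equal FPKM sums SARS2 was. As deposited, 11 of the 16 had a positive log2 fold change, and the median was 0.06, near the 0.03 of all genes tested. Among all genes tested, 55.1% were positive, 16.2% were separated and higher, and 10.7% were separated and lower. Their summed level was 237 and 185 FPKM in untreated and 224 and 207 FPKM in formaldehyde libraries. The untreated libraries spanned the formaldehyde ones: the median difference between untreated 1 and untreated 2 was 0.38, with 13 of 16 genes higher in untreated 1. Leaving out untreated replicate 2 gave a median of −0.07, and leaving out untreated replicate 1 gave 0.29. The median of the cytosolic members exceeded that of the mitochondrial members by 0.30, a difference that was not tested and that was 0.17 without untreated replicate 1. In each pairing of a formaldehyde with an untreated library the cytosolic median was the higher, at 0.28 against −0.01, 0.45 against 0.31, 0.18 against −0.17 and 0.40 against 0.26.

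The mitochondrial gene with the largest value was MARS2, the methionine enzyme (chr2:198570028-198573114, plus). It stood at 2.44 and 0.891 FPKM in untreated and at 4.83 and 1.87 FPKM in formaldehyde libraries. Replicate 1 was more than 2-fold higher than replicate 2 within each condition, so the groups overlapped. Its log2 fold change was 0.68 ± 0.48 (limma, unadjusted p = 0.212, adjusted p = 0.9999), and it was 0.17 and 0.25 without formaldehyde replicate 1 and untreated replicate 2, and 1.19 and 1.11 without formaldehyde replicate 2 and untreated replicate 1. MARS2 was also the least expressed member and rested on 118, 68, 198 and 120 fragments in untreated 1, untreated 2, formaldehyde 1 and formaldehyde 2, against at least 757 fragments for each cytosolic gene that has 1 transcript.

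RARS2, the arginine enzyme (chr6:88224096-88299735, minus), had the most negative value among the members. It stood at 22.5 and 19.2 FPKM in untreated and at 14.2 and 20.3 FPKM in formaldehyde libraries, so formaldehyde 1 alone was low. The log2 fold change was −0.28 ± 0.25 and was −0.035 without formaldehyde replicate 1, −0.17 without untreated replicate 1 and −0.52 without formaldehyde replicate 2. YARS2, the tyrosine enzyme that carries the motif shown above, stood at 12.6 and 6.93 FPKM against 15.5 and 9.18 FPKM. Replicate 1 was again the higher in each condition, and the log2 fold change of 0.32 ± 0.38 was −0.07 without untreated replicate 2. IARS2, the highest mitochondrial member, stood at 45.6 and 25.5 FPKM against 40.2 and 32.8 FPKM. Its untreated libraries lay outside its formaldehyde libraries on both sides, as did those of WARS2, at 7.59 and 4.20 FPKM against 5.48 and 5.72 FPKM. TARS2 stood at 23.4 and 24.8 FPKM against 23.0 and 25.3 FPKM, with a log2 fold change of 0.00 ± 0.19. AARS2, CARS2, FARS2, HARS2, LARS2, NARS2, PARS2, SARS2 and VARS2 had log2 fold changes between −0.19 (VARS2) and 0.19 (NARS2).

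The messenger levels of enzymes for the same amino acid in the 2 compartments could be set against each other in 14 pairs, with FARSA paired to FARS2. The cytosolic gene had the higher FPKM in all 14 pairs and all 4 libraries, with median ratios of 4.53 and 5.64 in untreated and 5.06 and 6.06 in formaldehyde libraries. The mean ratio was higher with formaldehyde in 13 of 14 pairs, and the ratios did not overlap between conditions in 6: AARS, HARS, IARS, TARS, VARS and WARS. In the AARS, HARS and IARS pairs neither gene was separated by itself. The share of such ratios among other pairs of genes was not computed, and the 16.2% given above is for single genes. The WARS to WARS2 ratio was 5.28 and 9.06 without and 10.4 and 10.5 with formaldehyde. The VARS to VARS2 ratio was 2.87 and 1.67 without and 4.15 and 3.07 with formaldehyde. In both pairs the lower formaldehyde value was above the higher untreated value. The isoleucine pair was the most even, with IARS to IARS2 ratios of 1.11 and 1.47 against 1.61 and 1.501. The methionine pair was the most uneven and the 1 whose mean ratio was lower with formaldehyde, from 61.5 to 37.2, with MARS2 the low-count gene of the pair. HARS and HARS2 lie head to head on chr5 of hg19 with 46 bases between them, and their ratio was 4.22 and 4.10 without and 5.09 and 4.39 with formaldehyde.

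Several members had more than 1 transcript in the files, and Cufflinks' division of fragments between transcripts is an estimate. KARS has a transcript for the mitochondrial form, NM_001130089, and one for the cytosolic form, NM_005548. The mitochondrial form stood at 10.7 and 6.45 FPKM in untreated and at 9.51 and 7.86 FPKM in formaldehyde libraries. The cytosolic form stood at 51.1 and 29.9 FPKM against 54.3 and 47.2 FPKM. For both forms the untreated libraries differed more than the groups did, and neither form separated. In EARS2, the glutamate enzyme, the coding transcript NM_001083614 stood at 10.2 and 7.27 FPKM against 8.81 and 5.80 FPKM. The non-coding EARS2 transcript NR_003501 stood at 0.00535 and 0.337 FPKM against 2.04 and 4.26 FPKM, or 0.0524% and 4.43% against 18.8% and 42.3% of the gene. The log2 fold change of the EARS2 gene was 0.22 ± 0.22 over both transcripts and −0.24 over the highest transcript alone. Over both transcripts it was 0.031 without untreated replicate 2, and 0.41 with untreated replicate 1 left out. In IARS, the transcript NM_013417 stood at 23.8 and 25.3 FPKM against 37.6 and 38.2 FPKM, while NM_002161 stood at 27.0 and 12.2 FPKM against 27.2 and 10.98 FPKM. The first of these IARS transcripts was separated and the other followed the replicate number. The IARS, KARS and EARS2 transcripts were chosen for mention after their values were seen, and these transcript values were not tested.

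**Figure D4:**
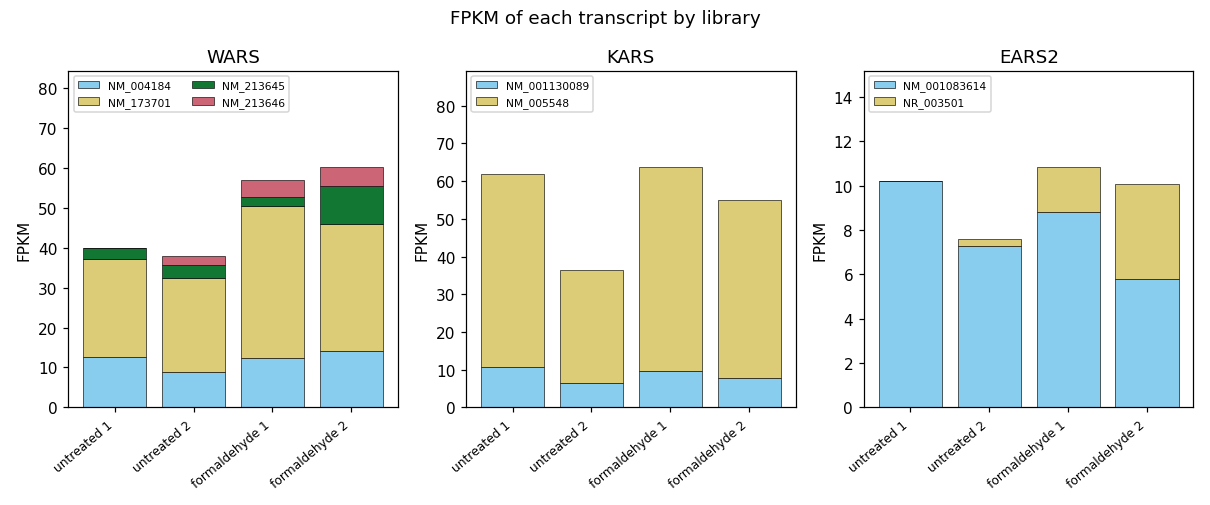
FPKM of each annotated transcript of WARS, KARS and EARS2, stacked to the gene's total, in the 4 libraries. The WARS total is above 57 FPKM in both formaldehyde libraries and at or below 40.05 FPKM in both untreated ones, and the non-coding EARS2 transcript NR_003501 reaches 4.26 FPKM in formaldehyde 2.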

How the data were processed

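RNA of 4 BEAS-2B libraries, 2 untreated and 2 given formaldehyde, was sequenced on an Illumina HiSeq instrument, per the labels. Per the submitters' processing notes, the tools were Cufflinks 2.0.2, STAR 2.5.2 and FastQC 0.10.0, and the named builds were GRCh37 and hg19. Settings for multi-mapped reads and strand were not given in the sources used here. The deposited files give FPKM per transcript, normalized by the authors with Cufflinks, with its confidence bounds and coverage, per the file headers. FPKM was summed by gene name, leaving out transcripts without one (1.07% to 1.31% of the FPKM). VARS and VARS2 copies on chromosome 6 haplotypes were all listed at 0. Fragment numbers were recovered from the confidence bounds, and depth from coverage divided by FPKM at a read length of 51.

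Genes with a mean of at least 1 FPKM (12407) were tested in limma 3.58.1 (R 4.3.3; lmFit and eBayes with trend) on log2(FPKM + 1). On this scale the change of genes with low values is understated. The 2 groups were compared without covariates, and p-values were adjusted by Benjamini-Hochberg with a threshold of 0.05. A gene was called separated where both formaldehyde libraries lay above, or below, both untreated ones. The script was tested on simulated data with fold changes larger than those of any separated synthetase. That test does not show how well changes as small as these are recovered. All 36 members were described. Those given in most detail are separated members and members with the largest moderated t (4 per compartment), with WARS, KARS and GARS, and up to 3 genes per accompanying list. The lists held complex and other cytosolic synthetases, scaffold proteins, catalytic classes, ATF4-listed synthetases, ATF4 axis, interferon genes, cytosolic and mitochondrial translation factors and cell type markers. The members and lists were chosen with earlier results of these data known. The motif search used RefSeq promoters of GRCh38.p14, matched by symbol, and coordinates of genes are those of the files (hg19). Alternatives were another pseudocount (0.1), other filters (none, a mean of at least 5 FPKM, or genes of at least 300 nt), rescaling, the highest transcript only, no variance trend, a replicate block and leaving out each library.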

Additional observations from a re-analysis of the deposited data

How the results depend on the processing

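No synthetase passed the threshold under any alternative run. The number of genes past it was 19, and was 0 without a filter on low values, 1 with genes of at least 300 nt, 29 with the replicate block and 31 to 55 when each library was left out. The replicate numbers were not treated as pairs: the labels give no shared source, there are only 2 pairs, and deviations of same-numbered libraries correlated at r = 0.25 across all genes tested and r = 0.67 across the 36 members, which are not independent replicates. The median of the cytosolic members ranged from 0.22 to 0.46 and that of the mitochondrial members from −0.068 to 0.29 when each library was left out. Of the 20 cytosolic members 11, and of the 16 mitochondrial members 2, kept their sign under all alternatives run. In counts chosen after seeing the data, 9 cytosolic members were separated and higher with median ratios and 9 with equal FPKM sums, where QARS was separated and lower, against 10 as deposited. The log2 fold change of TARS2 was −0.039 with median ratios and −0.062 with equal FPKM sums. With equal sums, those of CARS2 and HARS2 were −0.023 and −0.017, and that of EARS2 was −0.24 by its highest transcript. With each library left out in turn, the log2 fold changes that changed sign ranged in cytosolic members as follows: AARS −0.020 to 0.31, DARS −0.079 to 0.37, EPRS −0.094 to 0.50, FARSB −0.096 to 0.91, HARS −0.012 to 0.47, KARS −0.061 to 0.69, LARS −0.099 to 0.43, RARS −0.13 to 0.57 and QARS −0.11 to 0.011. In mitochondrial members the ranges were AARS2 −0.12 to 0.11, CARS2 −0.25 to 0.33, FARS2 −0.17 to 0.32, HARS2 −0.16 to 0.25, IARS2 −0.32 to 0.49, LARS2 −0.065 to 0.32, NARS2 −0.086 to 0.46 and PARS2 −0.046 to 0.25, with SARS2 −0.16 to 0.015, TARS2 −0.065 to 0.068, VARS2 −0.56 to 0.18, WARS2 −0.38 to 0.34 and YARS2 −0.070 to 0.71. The cause of these changes was not tested. MARS2, the least expressed member, had 68 to 198 fragments per library, with a counting error (2 standard deviations of the count) of 14.2% to 24.3%. Its replicates stood at 2.44 and 0.891 FPKM in untreated and at 4.83 and 1.87 FPKM in formaldehyde libraries. The part of depth in the spread of the low members was not tested.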

Other observations

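Of 16 cytosolic initiation and elongation factors, 15 had positive log2 fold changes and 7 were separated, with a median of 0.19, and none passed the adjusted threshold in limma. Among all genes tested, 55.1% were positive, 16.2% were separated and higher, and 0.153% passed the threshold. EIF2B3, a subunit of the exchange factor that the integrated stress response inhibits, stood at 19.9 and 12.1 FPKM in untreated and at 24.3 and 22.9 FPKM in formaldehyde libraries. EIF2S2, the beta subunit of eIF2, stood at 97.2 and 86.6 FPKM against 107 and 122 FPKM, and EIF2B2 at 19.8 and 16.5 FPKM against 23.1 and 21.8 FPKM. All 3 were separated. The log2 fold change of EIF2B3 was 0.57, and it was 0.24 without untreated replicate 2, and 0.91 with untreated replicate 1 left out. The median over all 16 factors was 0.09 when untreated replicate 2 was left out, 0.11 without formaldehyde replicate 1 and 0.40 with untreated replicate 1 left out.

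Of 18 names listed as mitochondrial translation factors, 17 were found, 14 of them had positive values and 2 were separated (TRMU and MTFMT), with a median of 0.14. The separated share of 11.8% was below the 16.2% of all genes tested that were separated and higher. Positive values were found in 55.1% of all genes tested. TRMU, which modifies mitochondrial transfer RNAs, stood at 12.1 and 10.1 FPKM in untreated and at 14.8 and 12.6 FPKM in formaldehyde libraries. QRSL1, a subunit of the amidotransferase that makes mitochondrial glutaminyl-tRNA, stood at 4.74 and 2.64 FPKM against 5.52 and 4.53 FPKM. MRRF, the mitochondrial ribosome recycling factor, stood at 10.9 and 7.39 FPKM against 13.2 and 10.4 FPKM. Both overlapped, with untreated 2 the lowest library in each. The median over the 17 factors was −0.06 without untreated replicate 2 and 0.34 when untreated replicate 1 was left out.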
